A study of Mus musculus with 4 samples.

Results

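The spots described here are rich in transcripts of Nts and Hap1 and lie below a limit on a set of hypothalamus marker genes. They were chosen from the measured counts: after a minimum of 500 counts per spot, counts were scaled to 10000 per spot, log-transformed and turned into z-scores over all kept spots. A spot was a member where the mean z-score of Nts, Hap1, Gpr101 and Npy2r was at least 1 and the mean z-score of Irs4, Arhgap36, Dlk1, Gabrq and Baiap3 was below 1. This gave 485 member spots of 12601 kept spots. The levels of these 9 genes define the members and are given as a description only. The limit did not leave the members low in the hypothalamus markers: their median mean z-score on these 5 genes was 0.41 against -0.42 in all other spots, and the summed level of the 5 genes was 438, 432, 438 and 543 counts per 1000000 in the members of 4 barcode sets against 183, 289, 188 and 325.

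Nts encodes the precursor of neurotensin, a peptide transmitter made by many neurons of the extended amygdala, hypothalamus and septal region. Hap1 encodes huntingtin-associated protein 1, a cytoplasmic protein of neurons that links cargo to motor proteins and marks hypothalamic and limbic forebrain neurons. Gpr101 encodes an orphan G protein-coupled receptor and Npy2r a receptor for neuropeptide Y. The extended amygdala is a belt of mostly GABAergic neurons from the central and medial amygdala to the bed nucleus of the stria terminalis, below and beside the striatum.

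Spatial expression was measured in 4 mouse brains, fixed in formalin, embedded in paraffin and cut coronally at the level of the striatum. The design names 2 animals with the wild-type Celsr3 gene (WT) and 2 heterozygotes (HZ). Animals had no treatment, their age and sex are not stated, and Celsr3 encodes an adhesion receptor of the cadherin family. A spot of the Visium CytAssist grid is a small region that can hold several cells. The barcodes fell into 4 sets, of which 0 could be tied to a mouse or genotype, so values stand for each set, with no test between genotypes and no replicate error. The 95% intervals given below reflect counting error alone.

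Members were found in every set. In set 1, 146 of 3055 spots were members, or 4.78% (exact Clopper-Pearson interval 4.05 to 5.60). In set 2 the share was 2.67% (75 of 2808 spots, 2.11 to 3.34). Set 3 had 4.41% (152 of 3444 spots, 3.75 to 5.15), and 3.4% of set 4 were members (112 of 3294 spots, 2.81 to 4.08). Set 2 had the lowest share. With z-scores taken within each set it was lowest too, at 2.81% against 3.83%, 4.27% and 4.13% in sets 1, 3 and 4. Member spots were shallower than the rest, with median counts per spot of 39169, 36168, 34945 and 20476 in sets 1 to 4 against 53102, 38258, 45548 and 26730 in all other spots. The part that depth played in the share or in the levels below was not tested beyond the thinned counts given with the genes. The members carried 445 different barcodes, of which 39 were members in 2 or more sets, so that the same grid position can recur between sets.

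**Figure D1:**
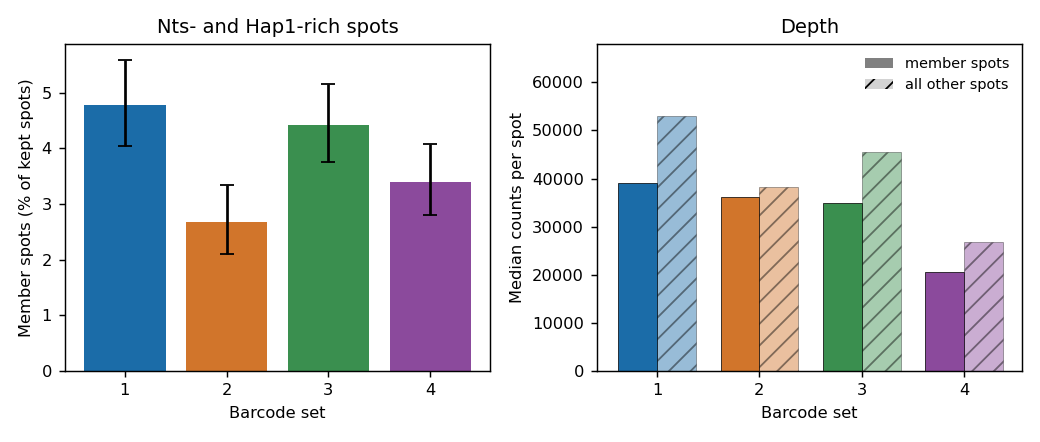
Share of kept spots that were members in each barcode set, with exact 95% intervals (left), and median counts per spot for member spots and all other spots (right). The share ran from 2.67% in set 2 to 4.78% in set 1, and members had the lower median count in all 4 sets.

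Within the members, levels are the summed counts of a gene per 1000000 of all counts summed over the spots (CPM). Nts stood at 92.0, 131, 77.5 and 133 CPM in the members of sets 1 to 4 and at 15.9, 37.1, 8.12 and 14.6 CPM in the other spots. Hap1 stood at 816, 519, 860.2 and 708 CPM against 283, 242, 305 and 293 CPM. For Gpr101 the members had 117, 59.6, 79.7 and 91.4 CPM and the others 17.2, 13.4, 17.6 and 17.7 CPM, and for Npy2r the members had 58.8, 55.1, 67.2 and 70.4 CPM and the others 10.6, 10.7, 10.5 and 7.85 CPM. The member score, the mean z-score of the 4 genes, ran from 1.00 to 3.33 with a median of 1.40. All 4 genes had a count in 261 members, 3 of them in 201 members and 2 of them in 23 members. The 60 members with a score of 1 to 1.1 and the 94 spots with a score of 0.9 to 1 that also had a hypothalamus score below 1 were alike in these genes, with 63.8 and 59.2 CPM of Nts and 576 and 717 CPM of Hap1. The limit on the hypothalamus markers removed 959 of the 1444 spots with a member score of at least 1, or 66.4%, so most spots rich in the 4 genes were also rich in hypothalamus markers.

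The sequence before the start of Nts is shown because Nts leads the member rule. The stretch lies at chr10:102490419-102490668 on the minus strand of GRCm38.p6 (RefSeq), covers the 250 bases upstream of the transcript start, and the capitals mark a match to TGANTCA, the core of sites bound by AP-1 factors, that begins 207 bases upstream.

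Nts: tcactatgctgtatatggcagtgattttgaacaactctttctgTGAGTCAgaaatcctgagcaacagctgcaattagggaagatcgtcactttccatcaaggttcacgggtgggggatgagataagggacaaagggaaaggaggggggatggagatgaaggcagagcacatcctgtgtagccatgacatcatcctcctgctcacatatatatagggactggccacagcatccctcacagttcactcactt

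TGANTCA was searched on both strands and was present in 7.82% of the upstream stretches of 27018 genes. Of the 4 genes of the member score, all with a promoter in the RefSeq table, 1 (Nts) held TGANTCA, and 0 held TGACGTCA or TAATTA, which were present in 1.77% and 5.65% of all genes. A match describes the letters and says nothing of binding.

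The name of the extended amygdala was set against lists of marker genes. The central list (Prkcd, Crh, Tac2, Penk, Sst, Calcrl, Wfs1, Six3, Cartpt, Isl1, Tshz1 and Zfhx3) had a mean z-score of at least 1 in 34 members, or 7.01%, against 1.48% of all other spots. The medial list (with Esr1, Pgr, Cyp19a1, Moxd1, Greb1, Tac1, Ecel1, Lhx6, St18, Prlr and Brs3) did so in 19 members, or 3.92%, against 2.72%. Either list reached that score in 52 members, whereas 166 members reached it on the septum, striatum or basal forebrain cholinergic markers. The lists differ in length, with 12 genes in each extended amygdala list and 4 to 6 in the others. The cholinergic list reached it in 83 members, or 17.1% against 5.68% of other spots, the septum markers in 50, or 10.3% against 9.88%, and the striatum markers in 43, or 8.87% against 23.4%. On the cortical excitatory list 0 members reached it, against 21.5% of other spots. Members thus reached the score on lists of several regions. The central and cholinergic lists were furthest above the other spots, the septum markers near them and the striatum markers below. The members are called Nts- and Hap1-rich spots here.

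Genes of cortical excitatory neurons were much lower in the members than in all other spots. Of those other spots, 21.5% scored at least 1 on the cortical excitatory list. The few genes called higher included the transcription factor gene Pax6 and Gad2, a gene of inhibitory neurons. A gene was called where log2(CPM + 1) differed by at least 1, in 1 direction, in all 4 sets, a scale that understates the change of low genes. Genes were left out where the mean over members and comparator spots was below 10 CPM. Of 10173 genes tested, 12 were called higher (0.118%) and 83 lower (0.816%). Of the 12, 0 were also called higher against the hypothalamus-marker spots described below, where 0.528% of all tested genes were. Against septum-marker spots 1 was (Gpr149, all-gene share 0.503%), and against striatum-marker spots 8 were (all-gene share 4.26%). These counts are descriptions of the sets and carry no p-value. In any such difference, more cells of a type in a spot and more RNA per cell cannot be told apart.

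Gad2 encodes a GABA-synthesizing enzyme and was at 1036, 846, 929 and 724 CPM in the members of sets 1 to 4 and at 498, 411, 458 and 334 CPM in the other spots. The ratio was 2.08, 2.06, 2.03 and 2.17, close to the limit of 2 in every set. The call of Gad2 was lost in 13 of the 20 alternative settings that could end a call, among them thinning, TMM and RLE scaling (2 other ways to set the library size) and each of the 4 markers left out of the score. Gad1, the other GABA-synthesizing enzyme, had 164, 179, 194 and 176 CPM against 106, 115, 140.1 and 98.1 CPM, and the vesicular GABA transporter Slc32a1 had 124, 133, 128 and 139 CPM against 65.8, 79.5, 69.3 and 61.7 CPM. Both were above the other spots in every set without reaching the 2-fold limit in all of them. The vesicular glutamate transporter Slc17a6, of subcortical excitatory neurons, had no common direction, with 80.4, 20.9, 86.0 and 53.6 CPM against 89.6, 15.7, 36.6 and 91.8 CPM.

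Pax6, a homeodomain transcription factor of forebrain development, was at 27.0, 15.9, 33.8 and 23.2 CPM in the members against 11.6, 5.49, 9.84 and 6.84 CPM, with ratios of 2.32, 2.90, 3.43 and 3.39. Its level was lowest in set 2 in both kinds of spots. With each spot thinned to 10000 counts, Pax6 had a count in 23.3%, 13.3%, 24.3% and 19.3% of members and in 10.6%, 6.91%, 9.95% and 6.60% of other spots. Before thinning, these shares were 55.5%, 30.7%, 54.6% and 33.0% of members and 38.9%, 18.0%, 30.4% and 16.0% of other spots. Thinning left out 3 members of set 4 and 0 in the other sets, and 1, 26, 4 and 165 other spots in sets 1 to 4. Pax6 was not called under thinning, and lost its call in 8 of the 20 settings that could end one, among them 5 CPM added, Nts or Hap1 left out of the score, and the spots of sub-cluster 1 or 6 left out. The stretch before the first listed start of Pax6, at chr2:105668646-105668895 on the plus strand of GRCm38.p6 (RefSeq), is shown because Pax6 was the 1 gene of the 7 called higher with a listed promoter that held TGACGTCA, the site of cyclic AMP response element-binding factors (both strands searched, capitals, beginning 76 bases upstream).

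Pax6: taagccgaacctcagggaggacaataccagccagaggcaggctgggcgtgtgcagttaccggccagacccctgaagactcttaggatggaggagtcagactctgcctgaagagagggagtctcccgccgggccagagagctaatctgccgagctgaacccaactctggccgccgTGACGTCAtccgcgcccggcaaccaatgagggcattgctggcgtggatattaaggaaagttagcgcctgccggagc

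Pcdh8, an activity-regulated protocadherin, was at 185, 185, 218 and 291 CPM against 63.7, 84.3, 91.6 and 94.9 CPM and Nrp2, a receptor for semaphorins, at 70.6, 112, 119 and 108 CPM against 30.9, 46.1, 56.0 and 48.0 CPM. The ratios for Nrp2 were 2.28, 2.42, 2.12 and 2.24. Pnck, a calcium/calmodulin-dependent kinase, was at 274, 329, 303 and 373 CPM against 120.3, 155, 133 and 183 CPM, and the orphan receptor Gpr149 at 18.7, 17.5, 23.1 and 13.3 CPM against 7.30, 6.54, 10.4 and 6.13 CPM. Mdga1, which anchors to the membrane and binds neuroligins, had 35.9, 44.0, 41.4 and 68.7 CPM against 16.6, 19.5, 16.3 and 21.6 CPM. All genes called were chosen for a difference in every set, so a lack of overlap between sets is not counted as a result. Also called higher were Atp6v1c2, a proton pump subunit, with ratios of 3.33, 4.46, 3.01 and 4.00, Tcerg1l, with 2.39, 3.07, 2.51 and 2.43, Ankfn1, with 2.22, 2.80, 2.37 and 2.33, and Nkain3, with 2.33, 2.62, 2.32 and 2.11. Of the 10173 tested genes, 123 had a mean below 10 CPM in the other spots and so passed the filter through the members. Pax6, Atp6v1c2 and Gpr149 were among them, so their calls rest on genes let in by the members. Under thinning to 10000 counts, 5 genes were called higher, of which 2 were among the 12, so 10 of the 12 calls were lost, Pax6, Gad2, Pcdh8 and Nrp2 among them. Without set 2 or set 4 the number rose to 32 and 21. Without sub-cluster 6, 6 genes were called higher, 3 of them among the 12, and without sub-cluster 7, 7 were, all among the 12.

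Lower levels in the members were led by genes of cortical projection neurons. Slc17a7, the vesicular glutamate transporter of cortical excitatory neurons, was at 102, 57.7, 148 and 93.5 CPM in the members and 1197, 1381, 1342 and 1180.4 CPM in the other spots, ratios of 0.0850, 0.0418, 0.110 and 0.0792. Neurod6, a neurogenic helix-loop-helix factor, was at 3.92, 1.90, 0.696 and 2.15 CPM against 44.3, 60.1, 40.3 and 41.4 CPM. Emx1, a factor of the dorsal forebrain, had 1.72, 0, 3.66 and 4.72 CPM against 25, 31.3, 30.5 and 28.8 CPM. Its count was 0 in the members of set 2, where the exact interval of the ratio reached up to 0.0447. At a floor of 3 counts over the member spots of that set, the level was 27.5-fold lower. Of the 6 genes of the cortical excitatory list, 5 were called lower, where 0.816% of all tested genes were, and all 6 were below the other spots in every set, where 16.8% of all tested genes were so (20.2% under TMM and 20.6% under RLE scaling). Without sub-cluster 4, 143 genes were called lower. The lower levels of the 6 cortical genes were not shared by the comparisons with subcortical spots described below. With genes too low to be tested included, 0 of the 6 were below hypothalamus-marker spots in every set and 3 were above. The same counts, 0 and 3, held against striatum-marker spots, and against septum-marker spots 1 was below and 1 above.

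**Figure D2:**
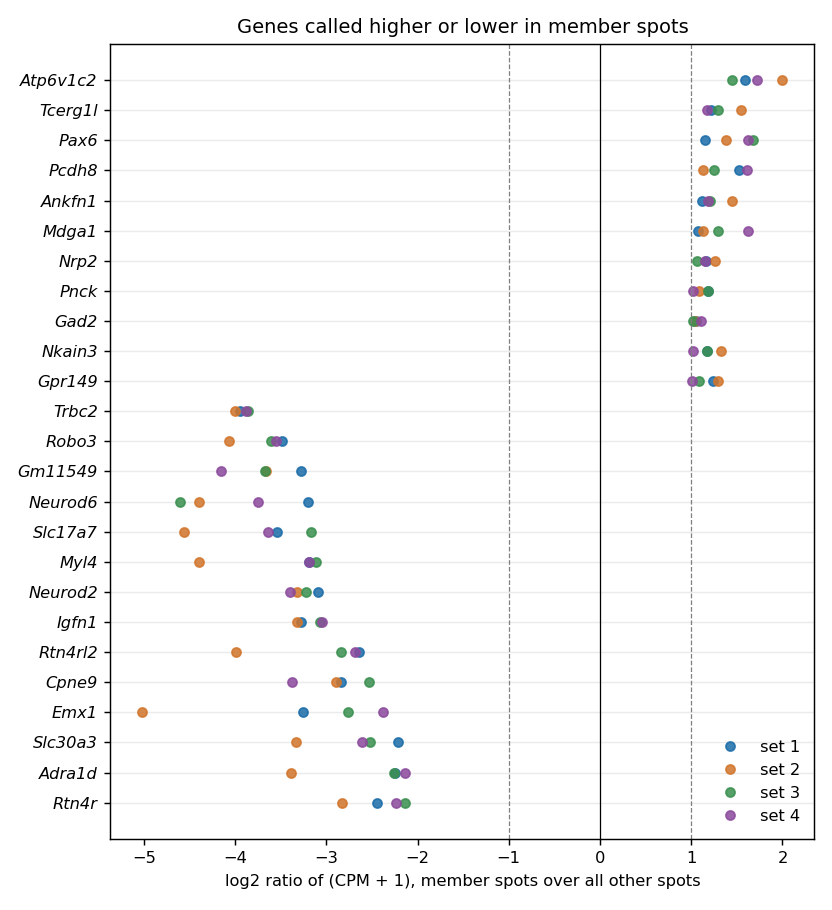
Differences in log2(CPM + 1) between member spots and all other spots for 11 genes called higher and 14 genes called lower, 1 point per barcode set. Dashed lines mark the limit of 1, and every point of a gene lies beyond the same line.

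Neuropeptide genes beside Nts did not share a direction. Of 26 precursor genes, 16 were tested, with 0 called higher (all-gene share 0.118%) and 3 lower (Oxt, Cck and Vip; all-gene share 0.816%). Oxt had a count in 21.9%, 16.0%, 8.55% and 17.0% of members of sets 1 to 4. In the other spots these shares were 19.7%, 11.0%, 12.1% and 26.1%. The other spots include the hypothalamus-marker spots, which the member rule keeps out and where Oxt was far higher, as given below. Their part in this call was not tested. Sst, the precursor of somatostatin, was at 705, 1429, 507 and 1467 CPM in the members against 489.6, 817, 322 and 920.0 CPM, above the other spots in each set, with log2 differences of 0.52, 0.81, 0.65 and 0.67. Crh, the precursor of corticotropin-releasing hormone, had log2 differences of 1.23, 1.37, 0.75 and 0.28. Cck, cholecystokinin, was at 226, 64.9, 216 and 233 CPM against 605, 714, 551 and 757 CPM, and Penk, the enkephalin precursor, at 725, 746, 374 and 516 CPM against 645, 745, 659 and 519.5 CPM with log2 differences of 0.17, 0.00, -0.81 and -0.01. Tac2, the precursor of neurokinin B, was at 375, 23.9, 266 and 299.9 CPM in the members and 28.1, 42.6, 60.6 and 81.5 CPM in the other spots. It was thus higher in sets 1, 3 and 4 and lower in set 2.

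Of 35 genes for receptors of these peptides, 18 were tested and 0 were called in either direction, a count near the all-gene shares of 0.118% and 0.816%. Ntsr1, the high-affinity neurotensin receptor, was at 17.6, 17.8, 18.6 and 36.0 CPM against 9.22, 13.4, 9.14 and 14.0 CPM and Ntsr2 at 341, 317, 323 and 296 CPM against 249, 285, 225 and 262 CPM, whereas the sorting receptor Sort1 was lower in every set, at 129, 162, 119 and 158 CPM against 171, 220.4, 188 and 205 CPM. The mu opioid receptor Oprm1 had log2 differences of 1.01, 0.99, 1.26 and 0.52 and the oxytocin receptor Oxtr of 1.21, 0.67, 1.30 and 0.97. Among 9 genes for partners of Hap1 and its motors, 0 were called, again near the all-gene shares of 0.118% higher and 0.816% lower. Ahi1, whose product forms a stable complex with Hap1 protein, was at 558, 502, 610.0 and 681 CPM against 245, 332, 270.4 and 337 CPM, with log2 differences of 1.19, 0.59, 1.17 and 1.01. Htt, which encodes huntingtin, was slightly below the other spots in each set, at 82.6, 34.9, 65.6 and 35.2 CPM against 89.6, 42.2, 76.8 and 40.5 CPM.

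Transcription factors of ventral forebrain neurons were mostly above the other spots, below the 2-fold limit. Of all 30 listed genes, 21 were higher in every set, where 30.2% of all tested genes were so. Of the 28 tested, 4 had a mean below 10 CPM in the other spots and so passed through the members. Of the same 28, 1 was called higher (Pax6, all-gene share 0.118%) and 2 were called lower, among them Satb1 (all-gene share 0.816%). Under TMM and RLE scaling, 20 and 19 were higher in every set, where 20.7% and 23.4% of all tested genes were so. Lhx8, a factor of cholinergic and other basal forebrain neurons, was at 27.8, 28.1, 24 and 34.3 CPM against 6.32, 20.4, 7.85 and 8.97 CPM, Dlx5, of GABAergic neuron development, at 50.2, 70.2, 59.2 and 33.5 CPM against 28.9, 28.4, 36.3 and 21.5 CPM and Tshz1 at 45.2, 79, 53.6 and 94.0 CPM against 28.3, 45.9, 27.6 and 44.8 CPM. Foxp1, which is abundant in cortex and striatum, was below the other spots in every set, at 58.2, 53.2, 29.8 and 24.9 CPM against 108, 91.3, 84.2 and 55.7 CPM.

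Imprinted genes are expressed from 1 parental allele, and many are abundant in the hypothalamus. In the members the levels of 12 of them lay between those of hypothalamus-marker and striatum-marker spots in every set. The share of all tested genes that lay between was not counted, and the upper side is tied to the member rule, as given below. Dlk1, which is imprinted too, belongs to the member rule and is not counted here. Against all other spots, 12 of 13 tested genes of 17 were higher in every set (all-gene share 30.2%). Of the 13, 0 were called (all-gene shares 0.118% higher and 0.816% lower), with a median log2 difference of 0.85, 0.65, 1.02 and 0.61. Nnat, neuronatin, was at 794, 871, 751 and 1143 CPM in the members, 379, 443, 286 and 617 CPM in all other spots, 1338, 1869, 1197 and 1869.8 CPM in 1581 hypothalamus-marker spots and 137, 189, 94.1 and 229 CPM in 2838 striatum-marker spots. The members lay between the last 2 in every set. Peg10 followed the same order, with 111, 131, 91.9 and 112 CPM in the members, 193, 224, 210.1 and 292 CPM in the hypothalamus-marker spots and 13.2, 14.2, 8.58 and 14.2 CPM in the striatum-marker spots, and so did Ndn with 880.4, 808, 899.5 and 863, 1520.4, 1567, 1437 and 1546 and 258, 295, 265 and 274 CPM. Against hypothalamus-marker spots, all 14 tested imprinted genes were lower in every set (all-gene share 27.6%), with Asb4 and Calcr called lower (all-gene share 0.293%). The members were held below the score that chose these spots, so this direction is a description of the choice. With no limit on that score, 0 genes were called lower and the median log2 difference of Asb4 turned to 0.20. Against striatum-marker spots, all 12 tested were higher in every set (all-gene share 43.8%), with 9 called higher (all-gene share 4.26%). These 3 counts in every set were the same under TMM and RLE scaling. Against septum-marker spots, 0 of 15 tested were higher in every set and 3 lower, also under both scalings. Of all 10338 genes tested there, 1592 were higher in every set and 1649 lower. The median log2 difference of the imprinted genes from septum-marker spots was 0.34, -0.58, 0.04 and -0.07. Cdkn1c was the tested gene below all other spots, at 8.15, 8.73, 10.6 and 15.4 CPM against 15.1, 10.3, 13.6 and 16.4 CPM.

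Lists for the extended amygdala were above all other spots by less than the limit. The central list had a median log2 difference of 0.65, 0.77, 0.75 and 0.32, against 0.05, 0.05, 0.07 and 0.03 over all genes tested. Of its 11 tested genes, 0 were called (all-gene shares 0.118% higher and 0.816% lower). Of the 11, 7 were higher in every set, and 8 of all 12 listed, where 30.2% of all tested genes were so (20.7% under TMM and 23.4% under RLE scaling, with the same 7 and 4 counts in this and the medial list). Wfs1, an endoplasmic reticulum protein used as a marker of the central nucleus, was at 217, 280.2, 147 and 124 CPM against 89.7, 95.1, 89.4 and 92.5 CPM, with log2 differences of 1.26, 1.55, 0.71 and 0.42. Prkcd, protein kinase C delta, was above the other spots in sets 2 and 3 only, at 16.1, 112, 58.0 and 15.4 CPM against 21.5, 27.2, 29.5 and 23.2 CPM. The medial list had medians of 0.51, 0.39, 0.51 and 0.07. In every set 4 of its 7 tested genes were higher, and 4 of all 12 listed, beside the all-gene share of 30.2%. Lhx6 was among them, at 43.1, 34.2, 40.0 and 48.1 CPM against 17.6, 25.8, 22.2 and 23.6 CPM. Against hypothalamus-marker spots, which the member rule keeps out, the central list had medians of -0.01, 0.04, 0.16 and 0.24. There 4 of its 11 tested genes were higher and 4 lower in every set. The medial list had medians of -0.18, -0.86, -0.67 and -0.22, with 1 of 9 tested genes higher and 4 lower. Of all 10223 genes tested there, 2248 were higher in every set and 2824 lower. All 6 listed genes of basal forebrain cholinergic neurons were higher than in all other spots in every set. Of these, 0 were called (all-gene shares 0.118% higher and 0.816% lower). The 4 of them that reached the mean of 10 CPM did so through the members, since each had a lower mean in the other spots, so no summary over these 4 is given. Chat, choline acetyltransferase, was at 16.9, 15.2, 14.3 and 12 CPM against 5.62, 8.58, 6.10 and 7.0 CPM. Celsr3 itself was at 41.1, 47.8, 29.2 and 54.5 CPM in the members against 31.4, 46.8, 25.9 and 47.0 CPM, with log2 differences of 0.38, 0.03, 0.17 and 0.21.

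**Figure D3:**
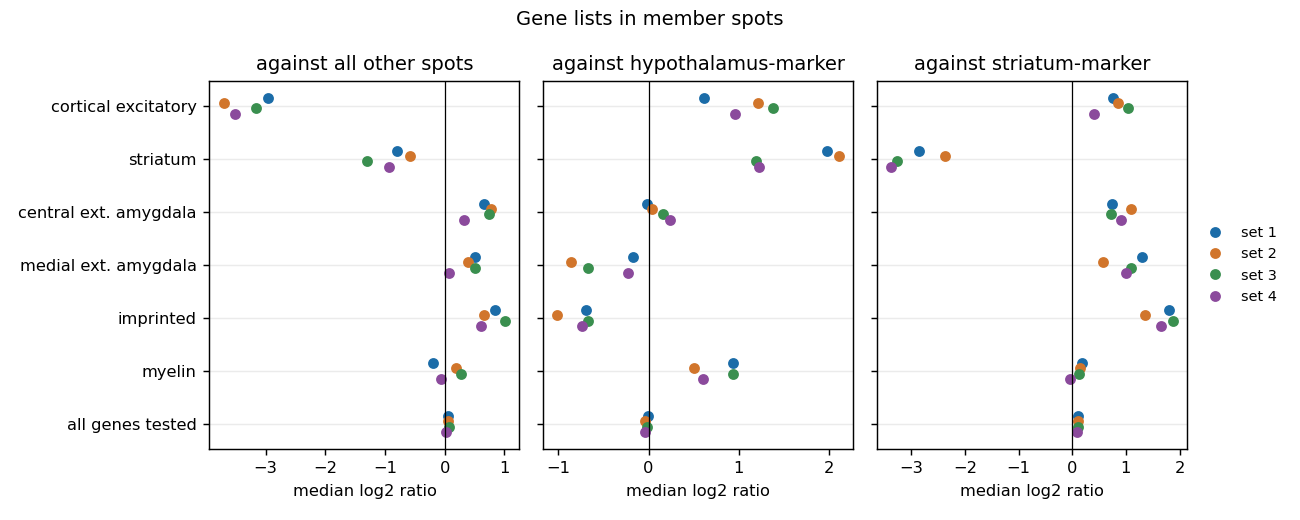
Median difference in log2(CPM + 1) of the tested genes of each list, member spots minus all other spots, hypothalamus-marker spots or striatum-marker spots, 1 point per barcode set. The imprinted list lies above 0 against all other and striatum-marker spots and below 0 against hypothalamus-marker spots in all 4 sets.

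The hypothalamus-marker spots were those with a mean z-score of at least 1 on the 5 markers on which members were held below that score. The same score thus separates both kinds of spots, and the values below describe groups divided by it. With no limit on the score in the members, 4 genes were called higher and 0 lower, and the median log2 difference of Oxt turned to 0.053. Of 10223 genes tested, 54 were higher in the members (0.528%) and 30 lower (0.293%). Striatal genes led the higher ones. Ppp1r1b, which encodes the dopamine-regulated phosphoprotein DARPP-32, was at 635, 1828, 642 and 552 CPM in the members against 34.4, 98.5, 69.4 and 44.6 CPM, and Adora2a, an adenosine receptor of striatal neurons, at 66.6, 83.1, 38.6 and 34.3 CPM against 3.48, 6.84, 2.76 and 2.95 CPM. Both were among the leading genes of sub-cluster 4 described below, and without its spots 17 genes were called higher. Of all tested genes, 121 had a mean below 10 CPM in the hypothalamus-marker spots and passed the filter through the members, Adora2a among them. Meis2, a factor of striatal and amygdalar development, was at 236, 161, 210.4 and 136 CPM against 65.2, 43.4, 49.9 and 25.3 CPM. Lower in the members were hormone genes of hypothalamic nuclei, with Oxt at 38.6, 103, 14.3 and 88.8 CPM against 4344, 1685, 1271 and 4493 CPM and Trh, the precursor of thyrotropin-releasing hormone, at 9.41, 12.2, 46.3 and 16.3 CPM against 248, 89.6, 182 and 356 CPM. The factor Otp, which specifies such neurons, was at 11.3, 1.52, 11.7 and 10.7 CPM against 122, 6.99, 75.1 and 119.8 CPM. Without set 1, 47 genes were called lower.

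Septum-marker spots had a mean z-score of at least 1 on Trpc4, Zic1, Zic2 and Zic4 and numbered 1197. Of 10338 genes tested, 52 were higher in the members (0.503%) and 38 lower (0.368%). Npy, neuropeptide Y, was at 392, 245, 203 and 406 CPM in the members against 15.2, 35.9, 24.4 and 20.9 CPM and Penk at 725, 746, 374 and 516 CPM against 16.9, 116, 39.0 and 63.9 CPM. The lower genes included markers of the ventricle lining and choroid plexus, such as Ttr, transthyretin, at 533, 11.4, 1697 and 9.01 CPM against 7636, 39.2, 14340 and 1781 CPM. The comparator spots thus carry ventricle genes as well as septal markers, and their part in the calls was not tested. The count of lower genes fell to 12 without Nts in the score (8 of them among the 38), to 12 without Gpr101 (6 among the 38) and to 16 with 5 CPM added. Without set 2, 79 genes were called higher and 80 lower, and without sub-cluster 4, 28 were called higher.

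Striatum-marker spots, with a mean z-score of at least 1 on the 4 striatum markers, which include Ppp1r1b, Rgs9 and Adora2a, differed most from the members by these counts. Of 10068 genes tested, 429 were higher in the members (4.26%) and 213 lower (2.12%). TMM scaling moved the median of all genes by -0.12 to -0.22 in the 4 sets and gave 337 higher and 296 lower, and RLE scaling gave 336 higher and 307 lower. Calb2, the calcium-binding protein calretinin, was at 221, 118, 311 and 230.4 CPM in the members against 5.78, 5.11, 6.02 and 4.21 CPM, and Pnoc, the precursor of nociceptin, at 34.5, 55.1, 43.2 and 41.6 CPM against 1.20, 2.05, 1.58 and 2.36 CPM. Resp18, a protein of secretory granules, was at 467, 257, 581 and 598 CPM against 26.5, 24.7, 33.5 and 37.9 CPM. Of all tested genes, 418 had a mean below 10 CPM in the striatum-marker spots and passed the filter through the members, Calb2 and Pnoc among them. Lower in the members were Scn4b, a sodium channel subunit of medium spiny neurons, at 90, 174, 47.2 and 62.6 CPM against 1601, 1174, 1309.8 and 1218 CPM, and Pde10a, the striatal phosphodiesterase, at 202, 332, 159 and 121 CPM against 1880.5, 1838, 1959 and 1499 CPM. These 5 genes were chosen for a difference in every set, so a lack of overlap between sets is not counted as a result. Without set 2, 356 genes were called lower, and without sub-cluster 4, 337.

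The members fell into 7 sub-clusters, numbered by size. Their leading genes chose them and are given as a description, in CPM inside a sub-cluster against CPM in the other members. Sub-cluster 1 held 127 spots with Slc17a7 (337 against 36.0), Cck (446 against 119), Npy (587 against 218) and Tshz1 (118 against 41.0). Its Slc17a7 level was still below that of all other spots in any set. Sub-cluster 2 held 92 spots with Ngfr, a neurotrophin receptor of cholinergic neurons (61.7 against 9.09), Lhx8 (79 against 14.9) and the vesicular acetylcholine transporter Slc18a3 (59.3 against 12.8). Its mean z-score on the cholinergic list was 1.20, and Ngfr and Slc18a3 of that list are among the leading genes that chose it. Sub-cluster 3 held 81 spots with myelin genes such as Mag (1076 against 305) and with Tac2 (870.4 against 175). It was also led by Oxt, Pmch and Avp, of which 43.8%, 70.5% and 46.0% of the counts came from 1 spot.

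Sub-cluster 4 held 70 spots with Ppp1r1b (3697 against 227), Adora2a (252 against 15.6), Pde10a (772 against 80.0) and Crym (264 against 14.3), and Ttr, 56.7% of whose counts came from 1 spot. Its mean z-score was 0.98 on the 4 striatum markers and 0.65 on the central extended amygdala list. Ppp1r1b, Rgs9 and Adora2a of the striatum markers are among the leading genes that chose it. Sub-cluster 5 held 59 spots with Pdyn, the dynorphin precursor (136 against 56.7), Cyp26b1, a retinoic acid-degrading enzyme (44.2 against 15.6), and genes of vessel walls such as Acta2 (39.2 against 6.27). Its mean z-score on the central list was also 0.65, and 60.7% of the counts of its first gene, Retnla, came from 1 spot. Sub-cluster 6 held 35 spots with Zic1 (1315 against 69.8), Prkcd (368 against 14.8) and Rasd1 (353 against 17.3). It had a mean z-score of 2.85 on the septum markers, of which Zic1, Zic2 and Trpc4 are among the leading genes that chose it. Sub-cluster 7 held 21 spots with Cartpt (546 against 78.6), the prolactin receptor Prlr (137 against 15.1), Otp (72.4 against 5.04) and Trh (219 against 8.19). It had the highest mean z-scores on the medial extended amygdala list, 1.38, and on the steroid receptor list, 1.3, which shares several genes with it. Prlr, St18 and Greb1 of the medial list are among the leading genes that chose it, and 8 of its 21 spots reached a score of 1 on that list. It was also highest on the 5 hypothalamus markers of the rule, at 0.83, and on the list of other hypothalamus genes, at 0.48. A single spot gave 40.6% of its Trh counts and 25.3% of its Cartpt counts.

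**Figure D4:**
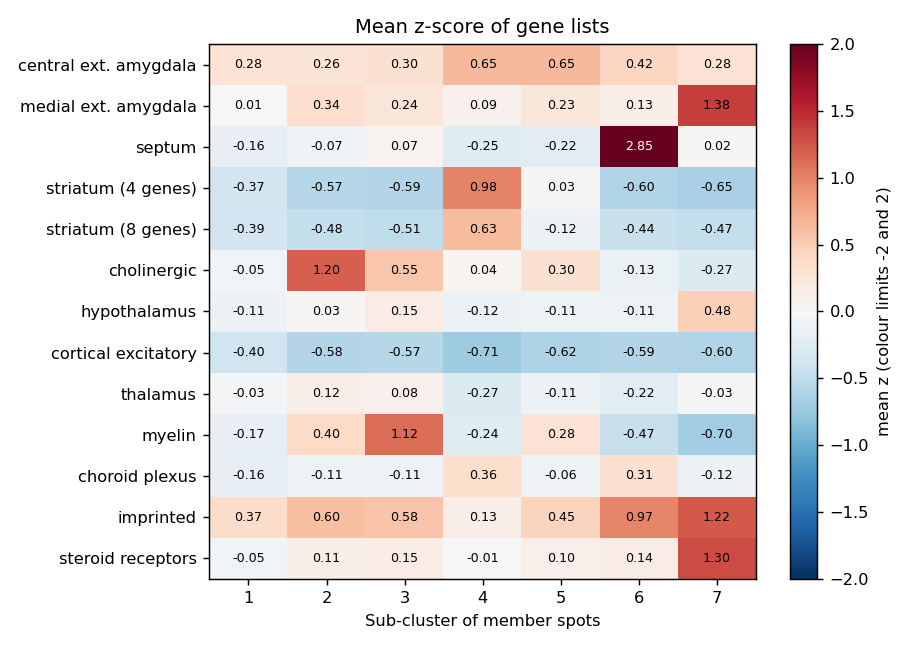
Mean z-score of gene lists (rows) in the 7 sub-clusters of member spots (columns), relative to all kept spots. Sub-cluster 2 is highest on the cholinergic list, 3 on myelin, 4 on striatum, 6 on septum and 7 on the medial extended amygdala list, and all 7 are below 0 on the cortical excitatory list. The cholinergic, myelin, striatum, septum and medial lists each hold leading genes of the sub-cluster highest on them, so these scores describe the clustering.

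The member genes and peptides were unevenly spread over the sub-clusters. Nts stood at 164, 101, 70.1, 59.2, 93.4, 90 and 36.2 CPM in sub-clusters 1 to 7, with the spots of all sets pooled. Within sets 1 to 4, sub-cluster 1 was highest each time, at 173, 203, 136 and 195 CPM, whereas the sub-cluster with the lowest level was a different one in every set. Hap1, at 792, 634, 672, 448, 818, 901 and 1810.1 CPM, was lowest in sub-cluster 4, also within each set, and highest in sub-cluster 7, also within sets 1, 3 and 4, where that sub-cluster had spots. The levels that follow are pooled over sets in which the sub-clusters had unequal shares. Gpr101 stood at 64.5, 96.1, 137, 74.2, 84.0, 66.7 and 169 CPM and Npy2r at 64.7, 66.7, 45.8, 86.0, 66.0, 42.6 and 41.9 CPM. Penk was at 257, 248, 238, 2009, 853, 42.6 and 214 CPM and thus concentrated in sub-clusters 4 and 5. For Tac2 the levels were 24.7, 557, 870.4, 44.2, 164, 6.87 and 170.2 CPM, with sub-clusters 2 and 3 highest. Sst, at 1278, 694, 475, 799, 1403, 555 and 354 CPM, was highest in sub-clusters 1 and 5, and Gad2, at 811, 958, 719.9, 884, 1008, 1052 and 1513 CPM, was lowest in sub-cluster 3 and highest in 7. Pax6 was at 38.6, 15.3, 18.6, 16.4, 33.6, 61.9 and 11.5 CPM, highest in sub-cluster 6 and lowest in sub-cluster 7.

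The sub-clusters did not occur in equal shares in the sets. Sub-cluster 6 made up 19 of the 75 members of set 2 (25.3%, 16.0 to 36.7) and 16 of the 152 of set 3 (10.5%, 6.14 to 16.5). It was at 0 of 146 in set 1 and 0 of 112 in set 4, where the exact intervals reach up to 2.5% and 3.24%. Sub-cluster 1 ran from 16.0% of members in set 2 (8.55 to 26.3) to 40.2% in set 4 (31.0 to 49.9). Sub-cluster 4 ran from 6.25% in set 4 (2.55 to 12.5) to 24% in set 2 (14.9 to 35.3). Sub-cluster 7 had 12 spots in set 1, 7 in set 3 and 2 in set 4, but set 2 held 0. At resolutions of 0.3 and 0.8 in place of 0.5, which gave 5 and 9 groups, the 70 spots of sub-cluster 4 and the 35 of sub-cluster 6 each stayed together as a group of the same size. The other sub-clusters were less fixed. At 0.3, sub-clusters 1 and 5 fell into 1 group of 187 spots and sub-clusters 2 and 7 into 1 of 113. At 0.8, the largest group holding spots of sub-cluster 1 had 85 of its 127, that of sub-cluster 3 had 44 of 81 and that of sub-cluster 5 had 44 of 59.

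**Figure D5:**
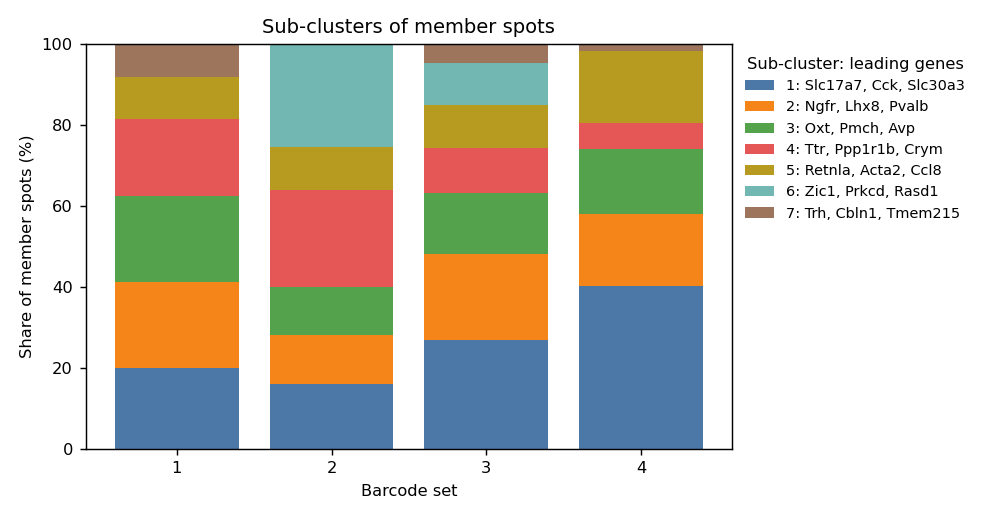
Share of the member spots of each barcode set that fell in each of the 7 sub-clusters, which are labelled by number and their first 3 leading genes. Sub-cluster 6 is found in sets 2 and 3, and sub-cluster 1 takes 40.2% of the members in set 4.

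Within the members, some genes differed widely between the sets. Over 10065 genes, the range of log2(CPM + 1) over the 4 sets had a median of 0.58 in the members and 0.49 in the other spots, which hold many more counts. A range over 2 was found for 110 genes in the members, and 55 of these also had it in the other spots. Zic1 was at 39.2, 440.0, 247 and 76.4 CPM in the members of sets 1 to 4 and at 99.8, 118, 115 and 229.5 CPM in the other spots. Rasd1, a small G protein induced by glucocorticoids, was at 12.2, 153, 44.9 and 18.9 CPM against 25.9, 38.7, 36.3 and 43.1 CPM. Zic1, Rasd1 and Prkcd were each highest in set 2 and next highest in set 3, the sets that hold sub-cluster 6, whereas Tac2 was lowest in set 2, where sub-clusters 2 and 3 had 9 spots each. The sets cannot be tied to genotypes, so the part of Celsr3 dosage, section level or animal in these ranges cannot be told apart.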

How the data were processed

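Visium CytAssist probe counts for mouse FFPE brain sections were used as the authors deposited them, a table of raw counts of 19465 genes in 12602 spots. Space Ranger and Seurat are named, per the submitters' processing notes. Their versions, the build, the probes and the spot filter are not given in the sources used here. Spot names end in 1 of 4 suffixes that match no label, so genotype tests were not run.

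1 spot under 500 counts was left out. Counts were summed over spots per set and expressed as CPM. Members and lists were chosen with earlier results of these data known. Named genes were, against all other spots, up to 25 called higher and 15 called lower by the smallest log2 difference over sets, 10 and 10 in each other comparison, genes of 28 lists, and the 10 leading genes of each sub-cluster (fold of CPM with 10 CPM added). Rule, Y-linked and X-inactivation genes were left out of calls. Sub-clusters came from 2000 variable genes, 20 principal components of the log values centred within each set, 15 neighbours and Leiden clustering (resolution 0.5, seed 0; leidenalg 0.10.2 and scanpy 1.11.5). Members held 6377849, 2633846, 5745407 and 2330458 counts in sets 1 to 4. Shares have exact binomial intervals and ratios exact conditional intervals (scipy 1.17.1). For a fold difference, a count of 0 is given a floor of 3 counts. Scaling factors (TMM, RLE) were computed in edgeR 4.0.16. No doublet caller was run. Some genes chosen by the rule are not reported here. Steps were tested on simulated data. Promoters are RefSeq sequences of the GRCm38.p6 table, of which 7 of the 12 genes called higher were matched. Alternatives were other score thresholds, z-scores within sets, no limit on hypothalamus markers, each marker left out, a minimum of 2000 counts, thinning to 10000 counts, no filter on genes, 5 CPM added, other scaling, and each set left out. Leaving out each sub-cluster was added after seeing the data.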

Additional observations from a re-analysis of the deposited data

How the results depend on the processing

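No genotype test was made because the sets match no sample label, so the planned edgeR, DESeq2, unfiltered and left-out-replicate fits were not run. No paired analysis was possible because the 4 sets carry no replicate number. Of the shares and counts of called genes, 188 values moved by less than their counting interval or 1.5 times and 54 by more, and of the named genes and sub-cluster alternatives 1863 did not move, 308 did and 4 turned.

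A score threshold of 0.75 gave member shares of 7.27%, 4.56%, 6.50% and 5.13% in sets 1 to 4, and the stricter threshold gave 3.47%, 1.57%, 2.76% and 2.49%. With z-scores within sets, the share was 3.83% in set 1 and 4.13% in set 4. With no limit on hypothalamus markers, shares were 10.8%, 12.6%, 13.0% and 9.38%, 169 genes were higher and 237 lower against all other spots, 4 and 0 against hypothalamus-marker spots, 25 lower against septum-marker spots, and 736 higher and 479 lower against striatum-marker spots. There the median log2 difference turned to 0.053 for Oxt, 0.10 for Sytl4 and 0.20 for Asb4 against hypothalamus-marker spots. Against septum-marker spots it turned to 0.13 for Fam183b. The members then include spots rich in hypothalamus markers, and the part of those spots in these values was not tested.

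Without Nts in the score the shares were 5.96%, 2.10% and 5.87% in sets 1 to 3, with 12 genes lower against septum-marker spots. Without Hap1 the share in set 4 was 4.10%, with 4 genes higher against all other spots, and 86 higher and 51 lower against hypothalamus-marker spots. Without Gpr101 the shares in sets 2 and 4 were 3.88% and 4.13%, with 12 genes lower against septum-marker spots. Without Npy2r, 33 genes were higher against hypothalamus-marker spots and 22 lower against septum-marker spots. Thinning gave 5.60% in set 1 and 5 genes higher and 50 lower against all other spots. With no filter on genes, 60 were lower against hypothalamus-marker and 82 against septum-marker spots. With 5 CPM added, 7 were higher against all other spots and 16 lower against septum-marker spots.

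Leaving out each set in turn gave 15 to 32 higher and 87 to 114 lower against all other spots, 60 to 67 and 31 to 47 against hypothalamus-marker, 54 to 79 and 40 to 80 against septum-marker and 429 to 577 and 218 to 356 against striatum-marker spots. Fewer sets make the call easier to meet. Without sub-cluster 4, 23 were higher and 143 lower against all other spots, 17 higher against hypothalamus-marker, 28 higher against septum-marker and 337 lower against striatum-marker spots. Without sub-cluster 6, 6 were higher against all other spots, and without sub-cluster 7, 7 were. TMM scaling moved the median of all genes against all other spots by -0.11 in set 1 and -0.10 in set 3 and gave 8 higher and 88 lower. No value here has a replicate error, and set 2 (2633846 counts in members) and set 4 (2330458) limit what can be called for genes near 10 CPM. Of the 12 genes higher against all other spots, Gpr149 lost its call in 14 and Gad2 in 13 of the 20 settings that could end one. Nrp2 and Pnck lost it in 10 each, Ankfn1 and Mdga1 in 9 each and Nkain3 and Pax6 in 8 each. Atp6v1c2, Pcdh8 and Tcerg1l lost it in 4 each.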
